A study of Microtus ochrogaster with 40 samples.

Results

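The similarity of gene expression between the 2 animals of a peer couple was measured in the nucleus accumbens of prairie voles. Peer couples are animals of the same sex, and they were taken from the library numbers: an odd number and the next even number form a couple. This rule gave 9 couples from 18 of the 40 libraries, 4 of 2 females and 5 of 2 males. Neither the labels nor the design text names cage partners, so whether animals with neighbouring numbers had lived together could not be checked here. Animals with neighbouring numbers may also have been dissected, prepared or sequenced together, and with these labels living together and being handled together cannot be told apart.

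Each library held the nuclei of 1 animal that had spent 16 days with an unfamiliar partner, either of the same sex (peer) or of the opposite sex (mate). The study had 8 female peers, 10 male peers, 11 female mates and 11 male mates, and no genotype, drug or age is given in the labels. Nuclei were separated from frozen tissue of each animal and their RNA was counted by single-nucleus sequencing. Female couples are called A to D and male couples A to E in the order of their library numbers, so female couple A holds female peers 1 and 2, female couple B female peers 3 and 4, and so on.

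Prairie voles form lasting bonds with a mate and also form selective bonds with a familiar animal of the same sex, which makes them a model for both kinds of attachment. In this region of the ventral striatum, dopamine, oxytocin, opioid peptides and corticotropin-releasing factor are known to act on bonding. Most of its neurons are medium spiny neurons, inhibitory projection neurons that express either the dopamine receptor D1 with the peptides substance P and dynorphin, or the receptor D2 with enkephalin. Local interneurons, astrocytes, oligodendrocytes with their precursors, and microglia make up the rest.

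The 18 peer libraries gave 74222 nuclei from 78205 barcodes, with 1767 to 5579 nuclei a library, 2915285 to 10710351 unique transcript counts (UMIs) a library and a median of 917 to 1854 UMIs a nucleus. Nuclei were grouped into classes by marker genes, and 9 classes had at least 20 nuclei in both animals of at least 3 couples of each sex. The spiny classes were D1 medium spiny neuron-like (12548 nuclei), D2 medium spiny neuron-like (11688) and eccentric medium spiny neuron-like (5524). Other neuronal classes were mixed interneurons (3344) and glutamate neuron-like (12920). Glial classes were astrocyte-like (7642), oligodendrocyte-like (5663), oligodendrocyte precursor-like (2019) and microglia-like (2131). The eccentric class joined 2 clusters. Over all 40 libraries, a cluster of 9224 nuclei was led by Foxp2 and Otof, and a cluster of 4826 by Col14a1, Shisa8 and Gabrq. The mixed interneurons, named for somatostatin interneurons by the marker rule, were 1 cluster led by Vip, Sst and Npy. At a finer resolution of clustering over all 40 libraries, a cluster of 7144 nuclei was led by Vip and Kit and met the marker rule for parvalbumin interneurons, and a cluster of 1148 was led by Npy, Nos1 and Sst. The class is therefore not read as somatostatin interneurons alone. The summed level of each class's markers was higher within the class than over all nuclei in 18 of 18 animals. Glutamate neurons, which abound in the neighbouring cortex rather than in the nucleus accumbens, gave 26 to 1479 nuclei per animal. Female peer 1 stood apart in quality: it had the lowest median of UMIs (917) and the highest median mitochondrial share (0.719%) of the 18. Its couple mate, female peer 2, had the second highest mitochondrial share (0.535%) and a median of 1347 UMIs. Clusters that no marker list named held 37.3% of the nuclei of female peer 1, the highest share of the 18 (median 13.4%). They held 19.4% of those of female peer 2. These nuclei count in all sums over all nuclei, and their part in the results was not tested.

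Over all nuclei, peer couples were on average slightly more alike than other peers of the same sex, by less than the spread between pairs. Similarity was the Pearson correlation r, across 13719 genes, between the log2 expression of 2 animals after the mean of their group had been taken from each gene. Removing the group mean pushes r below 0 for unrelated animals, so the value to read is the difference between couples and other pairs. Genes are not independent replicates, and tests were therefore made over animals. The 9 couples had a mean r of -0.0586 ± 0.132 (SD, n = 9) and the 64 other same-sex pairs a mean of -0.131 ± 0.152. With each sex weighted by its number of couples, the couples were higher by 0.0745, with p = 0.226 in an exact two-sided test over all 99225 ways of re-pairing the animals within each sex.

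**Figure D1:**
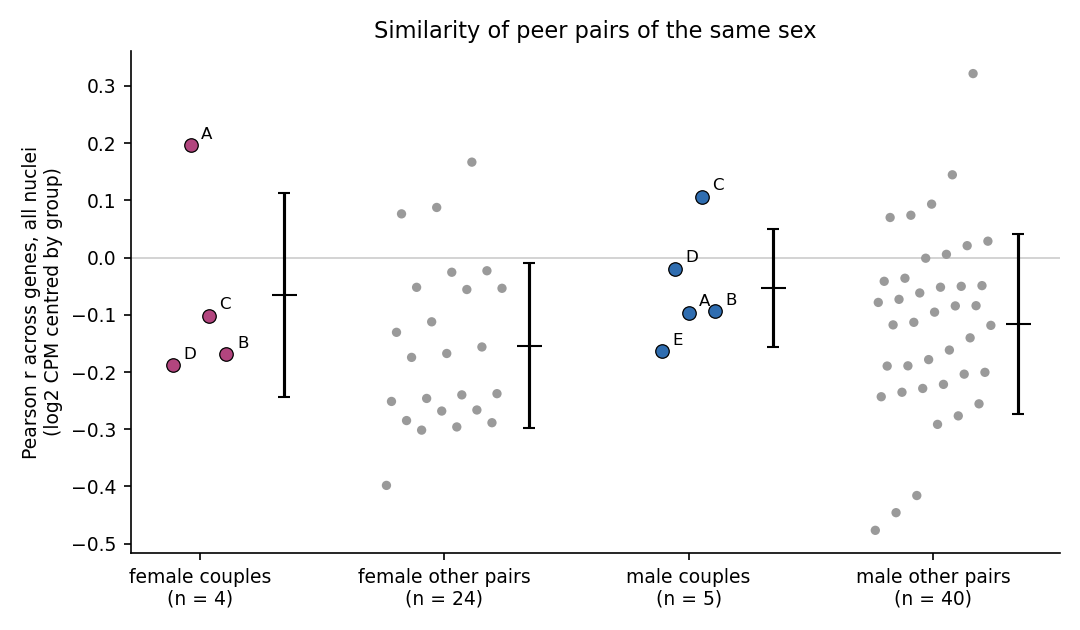
Correlation r of expression over all nuclei for pairs of peer animals, by sex. Coloured letters are the couples, grey points the other pairs of the same sex and bars the mean ± SD; female couple A (0.197) and male couple C (0.107) lie above the other couples, which overlap the grey points.

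In neither sex did the difference pass the test. Among females, r was 0.197 in couple A, -0.169 in couple B, -0.102 in couple C and -0.188 in couple D. Only couple A was above 0. The mean of the 4 female couples exceeded that of the other 24 female pairs by 0.0886 (exact re-pairing test, two-sided p = 0.324; the smallest p this design allows is 0.00952). Among males, r was -0.0961 in couple A, -0.0934 in couple B, 0.107 in couple C, -0.0193 in couple D and -0.163 in couple E. Here couple C was the only one above 0. The 5 male couples exceeded the other 40 male pairs by 0.0633 (exact two-sided p = 0.475, smallest possible 0.00106). The excess of a couple is its r minus the mean r of the other pairs of its kind, and the mean excess of female and male couples differed by 0.0253 (exact permutation p = 0.778). Adjusted for library measures (UMIs per nucleus, number of nuclei and mitochondrial share), this difference turned to -0.288 (exact permutation p = 0.00794), with females below males. Unadjusted, leaving out 1 couple at a time gave -0.135, without female couple A, to 0.114, without female couple D. For 4 of the 18 animals the couple mate was the most similar animal of its sex and pairing, among 7 candidates for a female and 9 for a male. These 4 were the members of female couple A and male couple C. The highest r between animals of different couples, 0.322 between male peers 4 and 8, was above that of every couple.

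The peer couples were set beside the 11 mate couples of the study, which were formed by the same numbering rule and each joined a female and a male. The mean excess was 0.0745 ± 0.132 (SD, n = 9) in peer couples and 0.0836 ± 0.107 (SD, n = 11) in mate couples. The difference of -0.00910 was small beside the spread among couples of either kind (exact permutation test over 20 couples, two-sided p = 0.867). Pairs of peers that were not couples were also grouped by how near their library numbers were, without a test. In males r averaged -0.0915 in the 2 such pairs with adjacent numbers, -0.0504 in the 6 with numbers 2 to 7 apart and -0.130 in the 32 farther apart, beside -0.0530 in male couples. Male pairs 2 to 7 apart were thus about as alike as male couples. In females r averaged -0.208 in the 8 pairs 2 to 7 apart and -0.127 in the 16 farther apart, beside -0.0656 in female couples. The part of near numbers in the likeness of couples was not tested.

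How much couples exceeded other pairs depended on which genes carried weight. Restricted to genes with a mean of at least 50 CPM (counts scaled to a common library total), the difference was 0.246 (exact p = 0.0183). With every gene scaled to the same variance it was 0.197 (exact p = 0.00992), and with Spearman's rank correlation 0.156 (exact p = 0.0281). With the 1000 most variable genes it was -0.0535 (exact p = 0.344). Adjusting each gene for library measures turned it to -0.0365 (exact p = 0.595), and adjusting for class shares to -0.0100 (exact p = 0.865). Without female couple A the difference was 0.0126 (exact p = 0.850), and without male couple C 0.0378 (exact p = 0.514).

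Couples differed in how far their likeness reached across classes, and this difference was not tested. The classes of a couple come from the same 2 animals and are not independent. Within classes, female couple D and male couple B exceeded other pairs in 9 of 9 classes, with a median excess of 0.131 and 0.0666. Female couple C (median excess 0.0874) and male couple D (0.0585) did so in 8 of 9, and female couple A (0.0574), male couple C (0.218) and male couple E (0.0215) in 7 of 9. Female couple B exceeded them in 6 of 9 classes (median 0.0607). Over all nuclei female couples B and D and male couple E were below other pairs, at an excess of -0.0152, -0.0343 and -0.0466. Male couple A was below other pairs in most classes and exceeded them in 2 of the 8 in which it could be measured (median -0.0364); male peer 1 had the fewest nuclei of all peers. Male couple C spanned a wide range: its excess was 0.287 in D2 medium spiny neuron-like and 0.282 in eccentric nuclei, but -0.496 in glutamate neuron-like nuclei, of which male peer 5 had only 26.

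**Figure D2:**
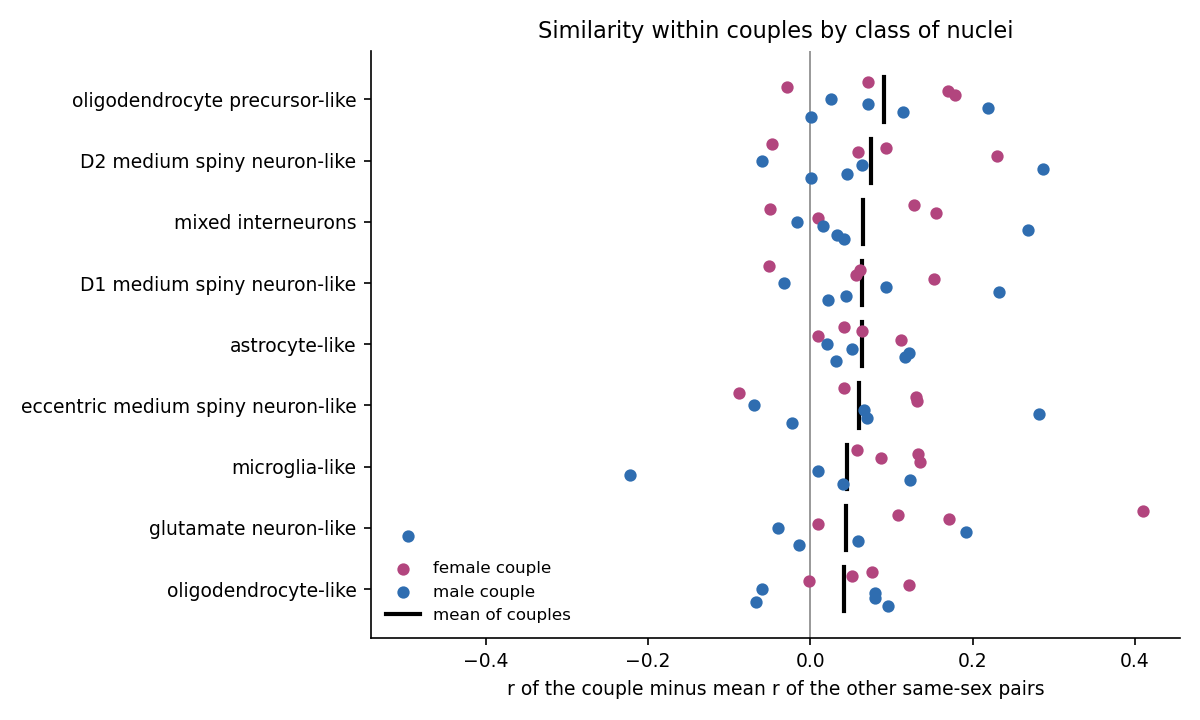
Excess similarity (r of a couple minus the mean r of the other pairs of its sex) for each couple in 9 classes of nuclei; points are couples coloured by sex and bars the mean. The oligodendrocyte precursor-like class has the highest mean, with 8 of 9 couples above 0, while in astrocyte-like nuclei all 9 are. Male couple C in glutamate neuron-like nuclei lies lowest at -0.496.

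By class, couples were more alike than other pairs in oligodendrocyte precursor-like nuclei, the 1 class of 9 (11.1%) past the threshold. These cells express Pdgfra and Cspg4, divide in the adult brain and give rise to myelinating oligodendrocytes. Across 2729 genes their mean r was -0.0412 ± 0.0856 (SD, n = 9) in couples and -0.130 ± 0.0865 in the 64 other pairs. The difference was 0.0912 (exact two-sided re-pairing test, p = 0.00230, Benjamini-Hochberg adjusted over classes 0.0207). Females and males gave similar differences, 0.0977 (exact p = 0.0286) and 0.0861 (exact p = 0.0423). The couple mate was the most similar animal for 7 of 18 animals. In the other classes it was so for 2 of 16 animals (microglia-like) to 6 of 18 (mixed interneurons).

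The likeness in precursors was spread over both sexes. The excess was 0.0710, -0.0282, 0.170 and 0.178 in female couples A to D and 0.0255, 0.0709, 0.218, 0.115 and 0.00105 in male couples A to E. Female couple B was the only one below other pairs. This spread was not particular to precursors: in astrocyte-like nuclei no couple was below, at an excess of 0.00987 to 0.122. The class was small, at 37 to 166 nuclei an animal, and with at least 50 nuclei required the difference was 0.0677 (exact test, adjusted p = 0.142). The adjusted p was above 0.05 when any 1 of 4 couples was left out: 0.0751 without male couple A, 0.154 without female couple A, 0.171 without male couple C and 0.0540 without female couple D. After adjustment for library measures the difference was 0.00173 (adjusted p = 0.981). Markers of spiny neurons were detected in the class, 15 of 16 D1 and D2 markers summing to 333 to 742 CPM (median 609) against 3089 to 5528 CPM in D1 nuclei, and their part in the result was not tested. The difference was 0.0849 over the 2375 genes higher in precursors than in spiny neurons (exact p = 0.00372) and 0.117 over the other 354 (exact p = 0.00545), a split chosen after seeing the data.

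The other 8 classes had positive differences too, but none passed after adjustment. D2 medium spiny neuron-like nuclei gave 0.0746 (exact p = 0.0671, adjusted 0.144), mixed interneurons 0.0649 (exact p = 0.0802, adjusted 0.144) and D1 nuclei 0.0640 (exact p = 0.106, adjusted 0.159). Astrocyte-like nuclei gave 0.0634 (exact p = 0.0315, adjusted 0.142) and eccentric nuclei 0.0601 (exact p = 0.0494, adjusted 0.144). After adjustment for library measures these 8 differences were all below 0, from -0.0835 to -0.00949. The unadjusted values were lowest in microglia-like (0.0451), glutamate neuron-like (0.0443) and oligodendrocyte-like nuclei (0.0416). Glutamate neuron-like nuclei differed in direction between the sexes, at 0.175 in females (exact p = 0.0476) and -0.0599 in males (exact p = 0.219), and the difference between the sexes was not tested. Male couple C was far below the other pairs, at an excess of -0.496, and 1 of its animals had 26 nuclei; recomputed without it, the male difference was -0.0862 (exact p = 0.190). Without female couple A the female difference was 0.0288 (exact p = 0.733).

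In their makeup of nuclei, couples were not closer than other pairs beyond the spread. The share of nuclei that would have to change class to match 2 animals was 19.3 ± 5.36 percentage points (SD, n = 9) within couples and 20.2 ± 8.71 between other pairs. The difference of -0.954 points lay within the spread (exact re-pairing test, two-sided p = 0.682). Female couple D was closest, at 8.83 points, and female couple B farthest apart, at 26.6. No single class had shares closer within couples after adjustment. None of 6 library measures passed either. The nearest was the mitochondrial share, which differed by 0.0781 ± 0.0584 points (SD, n = 9) within couples and 0.117 ± 0.114 between other pairs (exact p = 0.0322, adjusted 0.193). Couples shared 11 to 41 cell barcodes (median 31), against 4 to 56 (median 28.5) for other same-sex pairs and 2 to 52 (median 25) for pairs of a female and a male.

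Single genes were then tested for differences between couples of a sex beyond the differences within them. Over all nuclei, 1 of 13719 genes (0.00729%) passed an adjusted p of 0.05 in the quasi-likelihood test of edgeR, and 2151 genes (15.7%) had an unadjusted p under 0.05. The count of calls depended on the test: a likelihood ratio test in DESeq2 gave 1129, while edgeR with 1 couple left out at a time gave 0 to 2. The gene called by edgeR was Shank1, which encodes a scaffold protein of the postsynaptic density at excitatory synapses. Its level was 127 and 131 CPM in the 2 animals of female couple A, 60.3 and 56.2 in couple B, 46.2 and 49.8 in couple C, and 47.5 and 52.8 in couple D. In males it was 103 and 89.5 CPM in couple A, 57.9 and 61.7 in couple B, 54.3 and 77.8 in couple C, 55.8 and 61.7 in couple D, and 67.7 and 66.7 in couple E. Both animals of female couple A and both of male couple A were thus above all 14 others. Levels are CPM of the animal's own total, scaled by library, and are not compared between genes.

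The means of couples for Shank1 ran from 48.0 to 129 CPM, a ratio of 2.70, while the 2 animals within a couple differed by a median ratio of 1.08. The intraclass correlation, the share of a gene's variance (log2 scale, within sex) that lies between couples, was 0.916 (it falls below 0 where couple mates differ more than animals of different couples), and the edgeR adjusted p was 0.0240. Female couples alone gave an edgeR adjusted p of 0.00477 and male couples 0.337. The adjusted p was 0.572 without female couple A, 0.0511 without B, 0.143 without C and 0.0924 without D, and 0.594 with the log median of UMIs as a covariate. The 2 animals of female couple A had medians of 917 and 1347 UMIs and those of male couple A 1439 and 1349, against a median of 1582.5 over the 18 peers. In data summed over all nuclei, more nuclei of a class and more RNA per nucleus cannot be told apart. Within classes no Shank1 difference was called, but in glutamate neuron-like nuclei the same couples held the highest levels, at 226 and 208 CPM in female couple A and 152 and 157 in male couple A, against 84.8 to 149 in the others (edgeR adjusted p = 0.208).

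Female couples tested on their own gave 2 called genes (0.0146%), Shank1 and Rnf208, a ubiquitin ligase of the RING type, and 2074 genes (15.1%) at an unadjusted p under 0.05. DESeq2 called 719, and edgeR called 0 to 6 with a couple left out. Rnf208 was 56.8 and 58.8 CPM in female couple A, 28.5 and 25.3 in B, 30.5 and 28.2 in C, and 38.1 and 38.1 in D (edgeR adjusted p = 0.0403). Couple A again stood above the rest, and without it the adjusted p was 0.933. With 1 couple of either sex left out at a time, the edgeR adjusted p was under 0.05 in 4 of 9 fits. With the log median of UMIs as a covariate, no gene was called between female couples. Male couples gave 0 called genes of 13719 (0%) by edgeR, with 1695 at an unadjusted p under 0.05 (12.4%) and 273 called by DESeq2.

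None of the genes with the next lowest p values was called. Aldoc, a glycolytic enzyme of astrocytes, was 256 and 237 CPM in female couple A and 87.2 to 204 in the other animals (edgeR adjusted p = 0.136, intraclass correlation 0.856). Synpr, a synaptic vesicle protein, was lowest in male couple A at 57.4 and 75.7 CPM and highest in female couple D at 206 and 236 (edgeR adjusted p = 0.218). Kcnab2, a subunit of potassium channels, was 121 and 123 CPM in female couple A and 63.5 to 95.9 elsewhere (edgeR adjusted p = 0.232). Asph, a hydroxylase of the endoplasmic reticulum, and Porcn, which lipidates Wnt proteins, were lowest in male couple A, at 46.6 and 51.4 CPM and at 47.6 and 45.9 CPM. Nr4a3, an activity-induced nuclear receptor, was 108 and 80.1 CPM in female couple B and 28.4 to 50.9 in all others (edgeR adjusted p = 0.232). The unnamed gene ENSMOCG00000000291 and Tmem203 complete the list, both under 25 CPM in every animal.

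Within classes, 2 of 64149 combinations of a gene and a class (0.00312%) were called, and 5691 (8.87%) had an unadjusted p under 0.05. The count was 224 with DESeq2, 3912 with no filter on low counts, 8 with doublets kept and 0 to 14 with a couple left out.

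Reln in eccentric medium spiny neuron-like nuclei was among the called combinations. Reln encodes reelin, a secreted glycoprotein that guides neuronal migration in development and acts at synapses in the adult. It was 136 and 161 CPM in male couple B, 110 and 84.9 in male couple E and 99.3 and 76.3 in male couple A. Male couple C had 21.5 and 40.3 CPM and male couple D 26.7 and 22.5. Among females it was 45.8 and 26.8 CPM in couple A, 30.1 and 49.8 in couple B, 14.6 and 32.4 in couple C and 9.87 and 26.6 in couple D. The 6 animals of male couples A, B and E did not overlap the other 12, and the edgeR adjusted p was 0.0329 with an intraclass correlation of 0.727.

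Reln showed no such pattern in D1 medium spiny neuron-like nuclei, where the intraclass correlation was -0.545 (edgeR adjusted p = 0.951) and levels ran from 304 to 951 CPM. The eccentric class held 2 clusters, and the smaller one took 27.2% to 39.1% of the class in the 6 animals high for Reln and 17.0% to 49.2% in the other 12. D1 markers in the class summed to 2523 to 4522 CPM in those 6 and to 2063 to 4604 CPM in the others. The part of either measure in the result was not tested. The edgeR adjusted p was 0.0598 without male couple A, 0.147 without B, 0.0753 without C and 0.0665 without D.

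**Figure D3:**
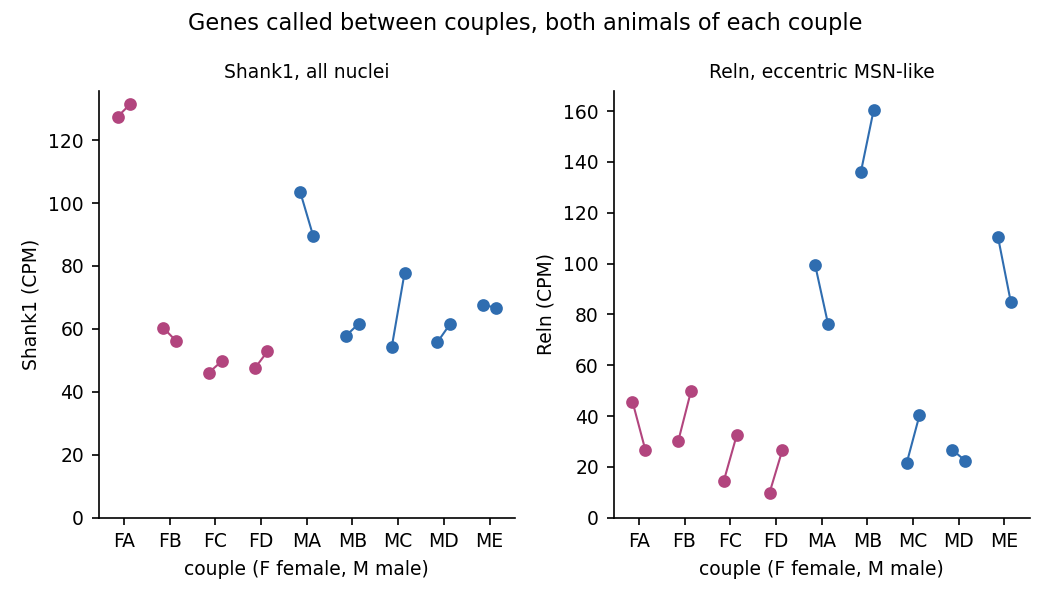
Level in CPM of Shank1 over all nuclei and Reln in eccentric medium spiny neuron-like nuclei; each point is an animal and the 2 animals of a couple share a column. Female couple A and male couple A are highest for Shank1, and male couples A, B and E for Reln.

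In 7 classes with no call the gene with the lowest p fell short of the threshold. In D2 medium spiny neuron-like nuclei it was Synpr, at 420 and 434 CPM in female couple D and 147 and 120 in male couple A (edgeR adjusted p = 0.0563). In D1 nuclei it was Selenom, a selenoprotein of the endoplasmic reticulum, at 83.5 and 88.9 CPM in female couple D and 19.4 and 30.3 in male couple A (edgeR adjusted p = 0.101). The same 2 couples thus marked the ends for both genes. In oligodendrocyte-like nuclei it was Prxl2a, a redox protein, at 48.2 and 33.7 CPM in female couple B and 116 to 306 in all other animals (edgeR adjusted p = 0.0563, intraclass correlation 0.926). In astrocyte-like nuclei the Prxl2a levels of female couple B were 180 and 221 CPM, against 185 to 377 in the rest. There 1 of its animals was the lowest and the other overlapped the rest.

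The remaining 4 were less evenly shared. Pvalb, the calcium buffer that marks parvalbumin interneurons, was 135 and 229 CPM in the mixed interneurons of female couple A and 40.2 to 176 in the others (edgeR adjusted p = 0.0563). Mbp, a myelin protein, was 133 and 225 CPM in the glutamate neuron-like nuclei of female couple A and 107 and 132 in those of male couple A, against 18.0 to 87.3 (edgeR adjusted p = 0.0983). Ddit4, a stress-induced inhibitor of growth signalling, was 1310 and 1071 CPM in the microglia-like nuclei of female couple A and 893 and 1258 in those of female couple D, against 212 to 697 in the other 12 animals of the 8 couples measured (edgeR adjusted p = 0.144). Col28a1, a collagen, ranged from 0 to 1010 CPM in precursors, with 0 in female peers 3 and 8 whose couple mates had 166 and 524 CPM (edgeR adjusted p = 0.0564).

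Gene lists were compared by how many members had an unadjusted p under 0.05 and by their median intraclass correlation, beside 15.7% and 0.196 over all genes. After adjustment over all genes, no member of any list was called. Leaving out a couple also changed the share over all genes. Counts with a couple left out are therefore not to be set against the shares from all couples. Among candidates for pair bonding, 6 of 22 had an unadjusted p under 0.05 (median intraclass correlation 0.162). They were peptides and a peptide receptor: Npy, Pdyn, Tac1, Sst, Cartpt and the kappa opioid receptor Oprk1. Npy, neuropeptide Y, was 224 and 167 CPM in female couple A, 166 and 150 in B, 219 and 173 in C and 261 and 369 in D. In males it was 158 and 158 CPM in couple A, 240 and 281 in B, 141 and 255 in C, 276 and 309 in D and 166 and 155 in E (edgeR unadjusted p = 0.00237, adjusted 0.235).

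Sst, the peptide made by the same interneurons, was highest in female peer 8 at 654 CPM and 431 CPM in its couple mate, while the lowest values, 239 and 240, were in male peers 5 and 1 (intraclass correlation 0.490). Pdyn, the precursor of dynorphin, was 274 and 162 CPM in male couple B and 89.3 and 123 in male couple A (intraclass correlation 0.642). Tac1, the precursor of substance P, ranged from 410 to 970 CPM (intraclass correlation 0.542). For dopamine, opioid, oxytocin and corticotropin-releasing factor receptors on the list, the intraclass correlation ran from -0.435 for Crhr1 to 0.414 for Oprk1. It was 0.0477 for Drd1, -0.00806 for Drd2 and 0.269 for Drd3. The oxytocin receptor Oxtr was at -0.0899, with 0.566 to 15.2 CPM. Peptides varied too: Crh, which encodes corticotropin-releasing factor, was at -0.398, with 0.666 to 13.1 CPM. Penk, the precursor of enkephalin, was at -0.355, with 879.5 and 1908.5 CPM in the 2 animals of male couple A.

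**Figure D4:**
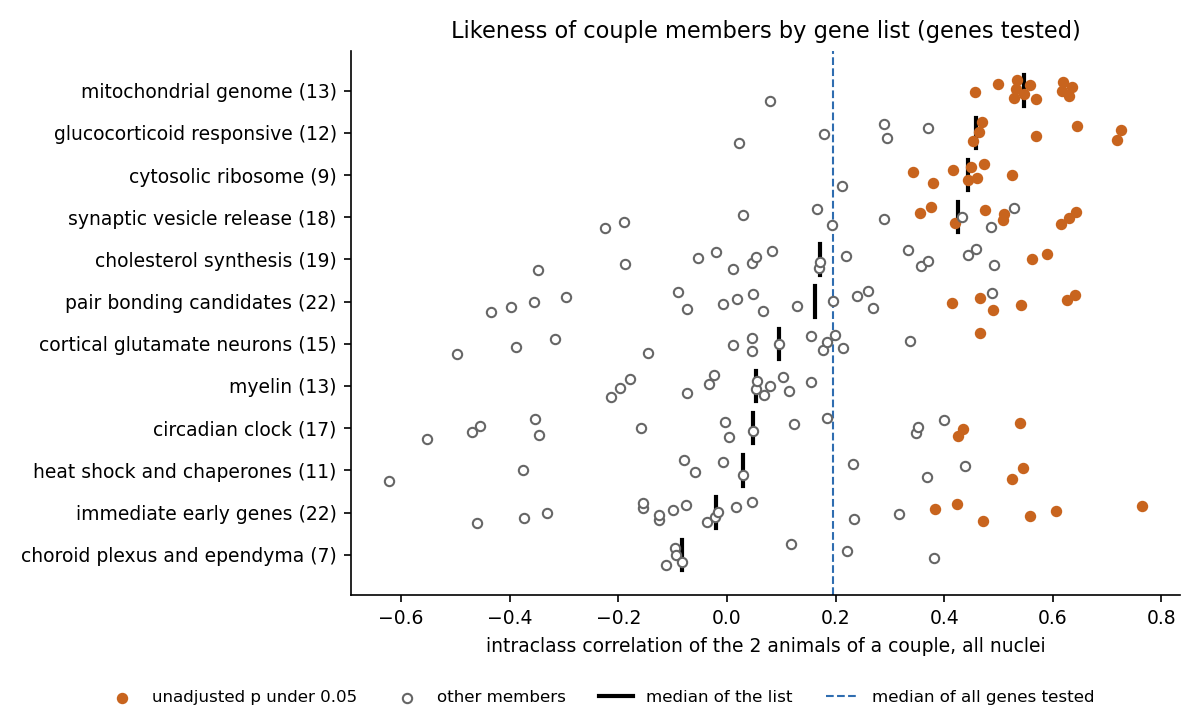
Intraclass correlation (share of the log2 variance that lies between couples) of each tested member of 12 gene lists over all nuclei; orange points have an unadjusted p under 0.05, black bars are list medians and the dashed line is the median of all genes, 0.196. Mitochondrial, glucocorticoid-responsive, ribosomal and synaptic vesicle genes lie highest.

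Immediate early genes, which neurons transcribe within minutes of activity, were called in no class after adjustment. Over all nuclei 6 of 22 had an unadjusted p under 0.05 (median intraclass correlation -0.0200), and 2 without female couple B. In D2 medium spiny neuron-like nuclei it was 13 of 18 (median 0.350), where 10.5% of all genes had one, and in D1 nuclei 9 of 18 (median 0.305), where 9.78% did. The member with the lowest p was Nr4a3, at 241 and 171 CPM in the D2 nuclei of female couple B and 20.4 to 88.1 in all other animals (edgeR adjusted p = 0.0563, intraclass correlation 0.734). Btg2, an inhibitor of cell division, had the next lowest p, with 93.2 and 71.9 CPM in female couple B and 1.18 to 26.3 elsewhere (edgeR adjusted p = 0.0758). Over all tested members, female couple B was the highest couple for 12 of 18 in D2 nuclei and the lowest for 1, Nptx2. In D1 nuclei female couple B was the highest for 5 of 18 and the lowest for 1, Egr3, and male couple B was also the highest for 5. Without female couple B, 4 of 18 had an unadjusted p under 0.05 in D2 nuclei. Its 2 animals were not equal: Fos was 161 and 69.0 CPM and Arc 571 and 276 in their D2 nuclei. Among other classes, 6 of 17 immediate early genes had an unadjusted p under 0.05 in eccentric nuclei (9.15% of all genes there). It was 5 of 22 in glutamate neuron-like nuclei (7.11%) and 1 of 8 in mixed interneurons (8.33%). Astrocyte-like nuclei had 0 of 4 (9.02%), and oligodendrocyte-like (7.29%) and precursor nuclei (11.5%) had 0 of 1 each. The difference between classes was not tested.

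Genes that respond to glucocorticoids, the stress hormones, had 7 of 12 members with an unadjusted p under 0.05 over all nuclei (median intraclass correlation 0.459). In oligodendrocyte-like nuclei it was 8 of 9 (median 0.522), where 7.29% of all genes had one, and 5 to 7 when any 1 couple was left out. Pdk4, a kinase that switches cells from glucose to fat as fuel, was 262 and 137 CPM in male couple E and 241 and 129 in female couple D, against 11.9 to 92.2 in the others (edgeR adjusted p = 0.0563, intraclass correlation 0.771). Sgk1, a kinase induced by these hormones, was 5547 and 4422 CPM in female couple A and 802 and 1363 in male couple C (edgeR adjusted p = 0.201). Nfkbia, an inhibitor of inflammatory transcription, was 397 and 198 CPM in female couple A and 23.3 and 9.21 in male couple C. Over all 9 tested members in these nuclei, female couple A was the highest couple for 5 and male couple C the lowest for 6.

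In astrocyte-like nuclei 5 of 8 glucocorticoid-responsive genes had an unadjusted p under 0.05, where 9.02% of all genes had one. Over all 8 tested members, female couple A was the highest couple for 5, Plekhf1, Pdk4, Nfkbia, Klf9 and Ddit4, and male couple E for 2, Hif3a and Fkbp5. Errfi1 was highest in male couple B. Klf9, a transcription factor, was 815 and 741 CPM in female couple A and 407 and 460 in male couple C. In microglia-like nuclei it was 3 of 4, where 6% of all genes had one. The neuronal classes had few: 0 of 8 in D1 nuclei (9.78% of all genes there), 1 of 8 in D2 (10.5%) and 1 of 10 in glutamate neuron-like nuclei (7.11%). It was 1 of 5 in eccentric nuclei (9.15%), 1 of 5 in mixed interneurons (8.33%) and 0 of 1 in precursors (11.5%). The difference between classes was not tested.

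**Figure D5:**
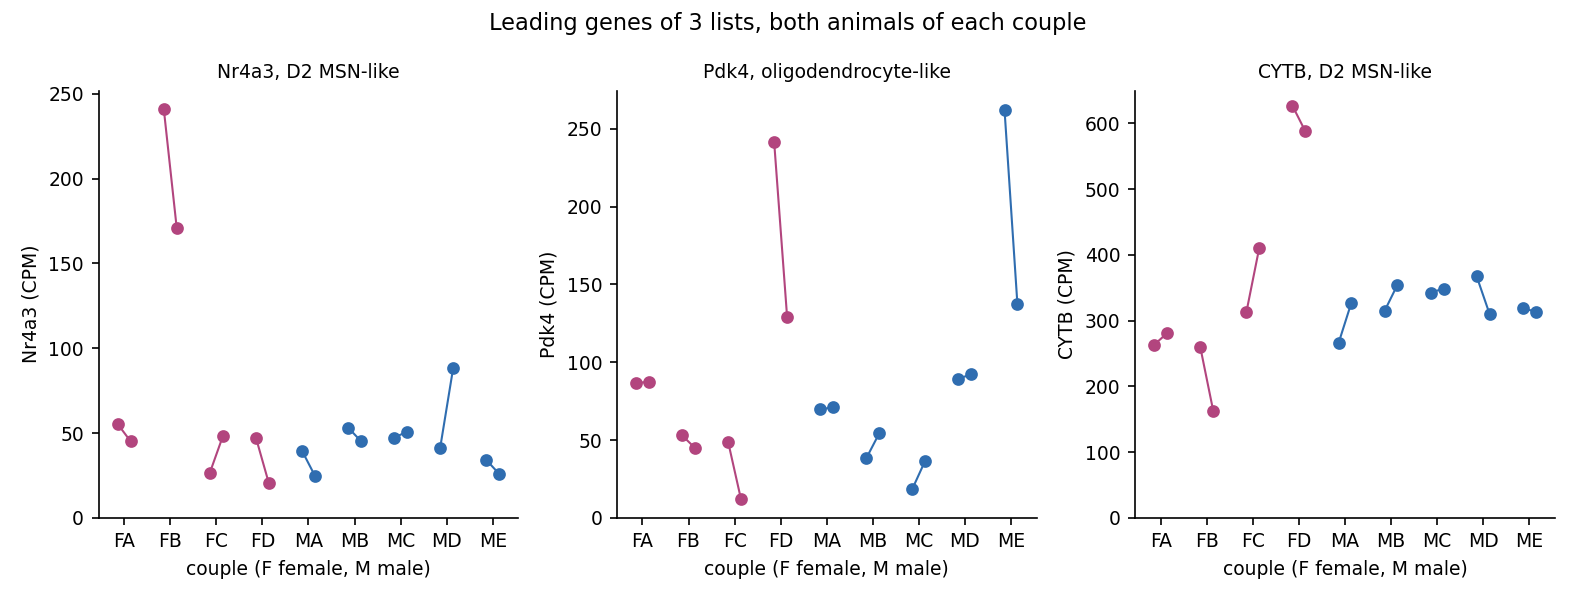
Level in CPM of Nr4a3 in D2 medium spiny neuron-like nuclei, Pdk4 in oligodendrocyte-like nuclei and CYTB in D2 medium spiny neuron-like nuclei; each point is an animal and the 2 animals of a couple share a column. Female couple B is highest for Nr4a3, male couple E and female couple D for Pdk4, and female couple D for CYTB.

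Genes of the mitochondrial genome, which encode subunits of the respiratory chain, had their highest level in female couple D for 12 of 13 tested members in D1 and for 12 of 13 in D2 medium spiny neuron-like nuclei. Over all nuclei another couple was highest: female couple A, which had the highest mitochondrial shares, led for 12 of 13 members, while in D1 nuclei it was the lowest couple for 6 of 13. Over all nuclei 12 of 13 had an unadjusted p under 0.05 (median intraclass correlation 0.548), against 1 without female couple A and 6 without female couple B. It was 12 of 13 in D1 nuclei (median 0.595, 9.78% of all genes there) and 12 of 13 in D2 nuclei (median 0.681, 10.5%). Without female couple D it was 7 in D2 nuclei. Oligodendrocyte-like nuclei had 0 of 13 (median -0.178, 7.29%), and the difference between classes was not tested. Of 12 tested members, 11 had an unadjusted p under 0.05 in eccentric nuclei (9.15% of all genes there) and 11 in astrocyte-like nuclei (9.02%). Also of 12, it was 6 in mixed interneurons (8.33%) and 7 in oligodendrocyte precursor-like nuclei (11.5%). Leaving out female couple D lowered the count in eccentric nuclei to 3 of 13, leaving out female couple B lowered it to 7 of 13 in astrocyte-like nuclei and 3 of 12 in mixed interneurons, and leaving out female couple A lowered it to 2 of 12 in precursors. In glutamate neuron-like nuclei it was 6 of 13 (7.11%), from 0 without female couple A to 11 without male couple A. In microglia-like nuclei it was 2 of 11 (6%). CYTB, a subunit of respiratory complex III, was 627 and 588 CPM in the D2 nuclei of female couple D, 260 and 163 in female couple B and 263 to 411 in the other animals (edgeR adjusted p = 0.0692, intraclass correlation 0.795). These transcripts are made outside the nucleus. The mitochondrial share of a nucleus was counted from these 13 genes, so they are not read as 13 separate results. The median mitochondrial share of a library ran from 0.209% to 0.719%, and its part in the result was not tested. Nor was that of the unnamed clusters, which held 37.3% of the nuclei of female peer 1 and 19.4% of those of female peer 2. Among these clusters, 1 of 4757 nuclei over all 40 libraries was led by Gng7 and by mitochondrial genes such as ND4L and ND2. The share of that cluster in each animal is not given here.

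Over all nuclei, female couple A was the highest couple for 9 of 9 cytosolic ribosomal protein genes and for 10 of 18 synaptic vesicle genes. Of the 9 ribosomal genes, 8 had an unadjusted p under 0.05 (median intraclass correlation 0.443), and of the 18 vesicle genes 9 did (median 0.426). Of all genes 15.7% did. Rpsa, a ribosomal protein, was 312 and 366 CPM in female couple A and 167 to 294 in the others, and Snap25, of the vesicle fusion machinery, 2366 and 2548 against 1076 to 2207. Without female couple A the counts over all nuclei were 0 of 9 ribosomal, 1 of 18 vesicle, 1 of 13 mitochondrial and 4 of 12 glucocorticoid-responsive genes, while 1150 of 13719 genes had an unadjusted p under 0.05. With the log median of UMIs as a covariate they were 0, 1, 2 and 4, and 1122 of all genes. Within classes the ribosomal count ran from 0 of 9 in eccentric nuclei (9.15% of all genes there) and mixed interneurons (8.33%) to 4 of 9 in oligodendrocyte-like nuclei (7.29%). In D1 nuclei it was 1 of 9 (9.78%). The vesicle count ran from 1 of 17 in mixed interneurons to 6 of 15 in astrocyte-like nuclei (9.02%). The difference between classes was not tested.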

How the data were processed

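The deposited matrices held raw counts of unique transcripts per gene and barcode, made by the authors with Cell Ranger 3.1.0, per the submitters' processing notes. The genome build and aligner settings are not given in the sources used here. The files list 19130 genes, 3807 of them without a symbol; symbols were matched to RefSeq (13332 found).

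Nuclei needed at least 500 UMIs and at most 5% mitochondrial counts, and simulated doublets were removed at 0.8% per 1000 barcodes. This kept 178387 of 194518 barcodes in all 40 libraries. Nuclei were clustered with igraph 0.11.9 and leidenalg 0.10.2 (2000 variable genes, 30 components, resolution 1, 30 clusters). Clusters were named from 122 markers in 17 lists, needing 3 markers at least 1 higher on the log2 scale than in other nuclei. Of all nuclei, 11.9% stayed unnamed. The naming rules were adjusted after seeing clusters, before couples were compared. The couples, classes and gene lists were chosen with earlier results of these data known. Vascular-like (667), cholinergic interneuron-like (216) and differentiating oligodendrocyte-like nuclei (150) were too few to test.

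Counts were summed per animal and class, scaled by edgeR's trimmed mean of M values and put on a log2 CPM scale with a prior count of 2. Library labels give no replicate numbers; animals are numbered by accession within a group, and each library is a separate animal. Couples were compared by exact two-sided re-pairing within sex (105 pairings of females, 945 of males). Genes were tested with edgeR 4.0.16 in R 4.3.3, with 1 mean per couple and 7 contrasts between couples of a sex, Benjamini-Hochberg adjusted over all genes, or over all combinations of a gene and a class; DESeq2 1.42.0 was an alternative. Exact tests went through every pairing or split with numpy 2.4.6, and ranks were taken with scipy 1.17.1. On simulated data with the real means, the edgeR test over all nuclei (13719 genes) recovered 65% of 100 genes given an SD between couples of 0.5 (log2). It recovered 96% of 100 given an SD of 1, and 11 of all 172 calls were false. The altered genes were drawn only from those above a low CPM floor, so recovery of the least expressed genes was not measured. Genes were simulated as independent, with dispersions from the real fit. These rates therefore do not show how many real differences between couples were missed. Named genes were all called genes over all nuclei and the 10 with the lowest p, up to 3 called genes per class or else the 1 with the lowest p, and members of the fixed lists with high mean CPM; the list members described by class were chosen after their values were seen. A called combination of a gene and a class is not reported here. Adjustment for library measures regressed out the log median of UMIs, the log number of nuclei and the mitochondrial share; adjustment for class shares used their first 3 principal components. Counting depth sets the precision: the precursor class rests on 37 to 166 nuclei an animal.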

Additional observations from a re-analysis of the deposited data

Results flagged for a closer look

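Male peer 1 kept 1767 nuclei, while the other 9 male peers kept 3635 to 5466. The gap to its nearest neighbour was 0.505 of the range of the 10 values, above Dixon's 95% critical value. It was the 1 such value among 56 groups of values examined, and chance alone marks about 1 in 20 groups. Male peer 1 belongs to male couple A, the couple that exceeded other pairs in 2 of 8 classes and could not be measured in microglia-like nuclei.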

How the results depend on the processing

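The similarity of couples over all nuclei kept its direction and stayed short of the threshold with no filter on low counts, DESeq2 size factors, a prior count of 0.5, doublets kept, and without mitochondrial genes; thinning every animal to the smallest total gave 0.103 (exact p = 0.0749). It passed with Spearman's rho (0.156), genes of at least 50 CPM (0.246) and genes of equal variance (0.197); in females genes of at least 50 CPM gave 0.400 and equal variance 0.286. The direction turned with the 1000 most variable genes (-0.0535; females -0.107, males -0.0104), with adjustment for library measures (-0.0365; females -0.197), for class shares (-0.0100; females -0.00702, males -0.0125) and, added after seeing the data, for both (-0.0581; females -0.126, males -0.00379). The female minus male difference turned with the 1000 most variable genes (-0.0968), a prior count of 0.5 (-0.00239), library measures (-0.288, exact permutation p = 0.00794) and both adjustments (-0.122). The peer minus mate difference turned with Spearman's rho (0.0129), genes of at least 50 CPM (0.000739), equal variance (0.0355) and thinning (0.00388). Leaving out 1 couple at a time gave 0.0126 to 0.106 for all couples, -0.0719 to 0.177 for females, -0.0130 to 0.114 for males, -0.135 to 0.114 for females minus males and -0.0710 to 0.0222 for peers minus mates; class shares ran from -2.30 to 0.287 points. Leaving out a couple gave 0 to 2 classes past the threshold; there were 5 with Spearman's rho, 4 with genes of at least 50 CPM, 2 with doublets kept, and 0 with at least 50 nuclei or with library measures. Adjusted for library measures, the class difference turned in astrocyte-like (-0.0202), D1 (-0.0290), D2 (-0.00949), eccentric (-0.0202), glutamate (-0.0794), microglia-like (-0.0835), oligodendrocyte-like (-0.0425) and mixed interneuron nuclei (-0.0136), and in glutamate nuclei it ran from -0.0267 to 0.0695 with a couple left out. DESeq2 called 1129 genes over all couples, 719 between female and 273 between male couples, and 224 combinations of gene and class; with the log median of UMIs in edgeR, 0 genes were called over all couples (1122 at an unadjusted p under 0.05) and 0 between female couples (748). Without a filter on low counts edgeR called 6 genes between female couples and 3912 combinations, and with doublets kept 1 and 8. Leaving out a couple gave 0 to 2 genes over all couples, 0 to 6 between female, 0 to 1 between male couples and 0 to 14 combinations. The cause was not tested for any of these changes. Class results rest on few nuclei in some animals, and 2 animals a couple leave the spread within a couple poorly known. No paired analysis was possible because replicate numbers here follow accession order only, and the couples compared lie within a group.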

Other observations

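Further gene lists are given beside all genes tested over all nuclei, of which 15.7% had an unadjusted p under 0.05 at a median intraclass correlation of 0.196. None of 13 myelin genes had an unadjusted p under 0.05 between couples over all nuclei (median intraclass correlation 0.0540). None of 13 did in oligodendrocyte-like nuclei (0.111), where 7.29% of all genes had one. It was 4 of 7 in glutamate neuron-like nuclei (7.11% of all genes there), 2 of 4 in astrocyte-like nuclei (9.02%) and 1 of 4 in mixed interneurons (8.33%). D1, D2, eccentric, precursor and microglia-like nuclei had none, with 1 to 6 members tested and shares of 6% to 11.5%. Of 17 circadian clock genes, 3 had an unadjusted p under 0.05 over all nuclei (Per2, Bhlhe40 and Clock, median intraclass correlation 0.0488). None of 15 did in D1 (9.78% of all genes there) or in D2 medium spiny neuron-like nuclei (10.5%). Dbp, a clock output gene, differed more within couples than between them, at an intraclass correlation of -0.553. Heat shock genes gave 2 of 11 (median 0.0294) and genes of cholesterol synthesis 2 of 19 (median 0.172). The counts for clock and heat shock genes are close to the share over all genes and are no result about these lists. Markers of neighbouring tissue gave 1 of 15 for cortical glutamate neurons (median 0.0953) and 0 of 7 for choroid plexus and ependyma (median -0.0829). Of the 2 blood genes tested 1 had an unadjusted p under 0.05.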
